A study of Caenorhabditis elegans with 3 samples.

Results

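The sex determination pathway was followed in polyA RNA of feminised Caenorhabditis elegans through 10 genes chosen by name: the signal gene her-1, the receptor gene tra-2 and its protease gene tra-3, the fem genes fem-1, fem-2 and fem-3, the terminal regulator tra-1, and the germ line genes fog-1, fog-2 and fog-3. Of these 10 genes, 5 were listed in both deposited tables, tra-1 was listed in the table for Drosha RNAi alone, and 4 (her-1, tra-2, fog-1 and fog-3) were listed in neither. The dcr-1 table held 9631 genes, and 9996 were in the drsh-1 table. The study has 3 libraries, 1 per group: dcr-1 RNAi, drsh-1 RNAi and mock. All 3 came from young adults of the same fem-1 strain, carry 2.5 d in their titles and were treated by feeding RNAi, so the mock animals carry the fem-1 mutation as well. The fem-1 allele and the content of the mock food are not given in the sources used here. dcr-1 encodes Dicer, the RNase III enzyme that makes microRNAs and small interfering RNAs, and drsh-1 encodes Drosha, the nuclear enzyme that acts before Dicer on microRNA transcripts. The strain supplied sterile animals for the mock and Drosha groups, because loss of dcr-1 itself causes sterility, per the labels.

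In C. elegans the pathway is a chain of inhibitions. HER-1 is a secreted protein that inhibits the membrane receptor TRA-2 in males, TRA-3 is a calpain protease that cleaves TRA-2, and the cleaved receptor binds FEM-3. FEM-1, an ankyrin repeat protein, FEM-2, a protein phosphatase, and FEM-3 act with the CUL-2 ubiquitin ligase to lower the level of TRA-1, a zinc finger transcription factor of the GLI family that directs female development. In the hermaphrodite germ line FOG-2, an F-box protein, acts with the RNA-binding protein GLD-1 to hold back tra-2 translation so that sperm are made, and FOG-1 (a CPEB protein) and FOG-3 (a Tob family protein) specify sperm. XX animals that lack fem-1 function make oocytes and no sperm.

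Values are FPKM, the authors' fragment numbers scaled to transcript length and to the mapped fragments of the library, and differences are log2 ratios of (FPKM + 1), which understate the change of genes near the 2 FPKM limit of the tables. Every listed gene had at least 2 FPKM in both libraries of its table, so a gene below that level in either library is missing. With 1 library per group there was no replicate check, no standard deviation and no test, and the sequencing depth is unknown. For the targeted genes, dcr-1 was at 23.8 FPKM in dcr-1 RNAi against 36.8 FPKM in mock, and drsh-1 was at 20.9 FPKM in drsh-1 RNAi against 32.0 FPKM in mock in the drsh-1 table, the mock value of drsh-1 being 26.2 FPKM in the dcr-1 table. Since the RNA came from whole animals, fewer cells of a type and less RNA per cell cannot be told apart. The comparisons against mock share the same mock library.

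The germ line of these animals was read through lists of sperm, oocyte and male genes. All 21 oocyte genes looked up were listed, and over the 20 with the same mock value in both tables the median was 228 FPKM in dcr-1 RNAi, 334 FPKM in drsh-1 RNAi and 321 FPKM in mock. Their summed level was 8629, 9023 and 8091 FPKM in the same libraries. Gene by gene, 14 of 21 oocyte genes were above mock in dcr-1 RNAi, where 55.5% of all genes were. In drsh-1 RNAi 14 of 21 were above mock, where 50.4% of all genes were. The median log2 ratios of the oocyte genes were 0.13 and 0.08, so the lower median FPKM in dcr-1 RNAi does not mean that most of them were lower. Of 23 sperm genes looked up singly, 3 were listed, spe-6, spe-15 and spe-39, and the sperm gene families (major sperm proteins and the ssp, ssq, msd and nspd families) added 9. Over the 11 sperm genes with equal mock values the median was 7.96 FPKM in dcr-1 RNAi, 3.29 FPKM in drsh-1 RNAi and 3.81 FPKM in mock. Summed, these genes were at 92.6, 90.6 and 95.8 FPKM, so the sum was not higher in dcr-1 RNAi than in mock. The highest sperm gene was spe-39, which also acts in lysosomal trafficking outside sperm, at 29.9 FPKM in dcr-1 RNAi, 51.1 FPKM in drsh-1 RNAi and 48.6 FPKM in mock. nspd-7 was at 8.10, 10.8 and 13.3 FPKM in those libraries. None of 9 genes of male-specific neurons was listed (0 of lov-1, pkd-2, klp-6, cwp-1 to cwp-5 and trf-1), and neither were mab-3 and dmd-3, DM domain genes of male development. The libraries thus held abundant oocyte transcripts, while most of the sperm genes looked up singly were not listed. An XX animal without fem-1 function has oocytes and no sperm. The labels name the fem-1 strain but the allele is not given, so loss of fem-1 function in these animals cannot be checked here.

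**Figure D1:**
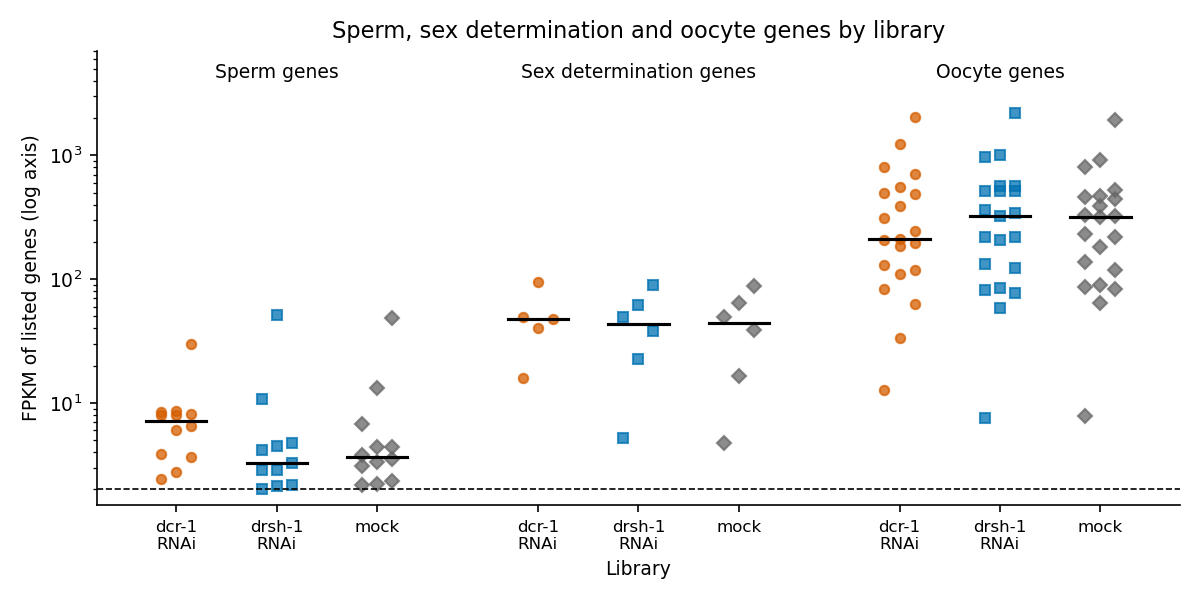
FPKM (log axis) of each listed sperm gene, sex determination gene and oocyte gene in the dcr-1 RNAi, drsh-1 RNAi and mock libraries; each point is 1 gene in 1 library, black bars are medians of the listed genes, and the dashed line is the 2 FPKM limit. Sperm genes lie mostly under 10 FPKM, the sex determination genes lie between 4.77 and 94.4 FPKM, and most oocyte genes lie above them.

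At the top of the pathway, the ligand gene her-1 and the receptor gene tra-2 were not listed in any library. Neither their symbols nor their sequence names (ZK287.8 and C15F1.3) appeared in the tables. A missing entry is not a measured level, so no level can be given for her-1 and tra-2. The protease gene tra-3 was at 16.0 FPKM in dcr-1 RNAi, 22.7 FPKM in drsh-1 RNAi and 16.5 FPKM in mock. The drsh-1 RNAi library was the high one, with a log2 ratio of 0.43 against mock, whereas the dcr-1 RNAi library was near mock at -0.05. The drsh-1 value was higher than that of 91.1% of the 9996 genes of its table.

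The 3 fem genes were all listed in every library. fem-1, the gene that carries the mutation, was at 40.1 FPKM in dcr-1 RNAi, 38.3 FPKM in drsh-1 RNAi and 38.8 FPKM in mock. Its transcript was therefore present in all 3 libraries, in mock at a level above 59.2% of the genes of the dcr-1 table, and its log2 ratios were 0.05 for dcr-1 RNAi, turning to -0.01 when ratios were centred on the median gene and to -0.02 with a common upper quartile, and -0.02 for drsh-1 RNAi. The phosphatase gene fem-2 was the most abundant gene of the pathway, at 94.4 FPKM in dcr-1 RNAi, 90.2 FPKM in drsh-1 RNAi and 87.8 FPKM in mock. Both RNAi libraries were slightly above mock for fem-2, by log2 ratios of 0.10 for dcr-1 RNAi and 0.04 for drsh-1 RNAi.

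Of the 5 sex determination genes listed in the dcr-1 table, fem-3 was farthest from mock in dcr-1 RNAi. It was at 49.5 FPKM in dcr-1 RNAi, 62.4 FPKM in drsh-1 RNAi and 64.7 FPKM in mock. The dcr-1 RNAi library was the low one (log2 ratio -0.38, or 0.768 of mock on the FPKM + 1 scale), and drsh-1 RNAi lay close to mock (-0.05). A ratio of this size was common in that library: 20.8% of the 9631 genes were lower relative to mock, and 54.1% lay no farther from mock in either direction. Relative to the other fem genes, fem-3 was at 1.23 times the fem-1 level in dcr-1 RNAi, 1.63 times in drsh-1 RNAi and 1.67 times in mock, while fem-2 was at 2.36 times the fem-1 level in dcr-1 RNAi, 2.36 times in drsh-1 RNAi and 2.26 times in mock.

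**Figure D2:**
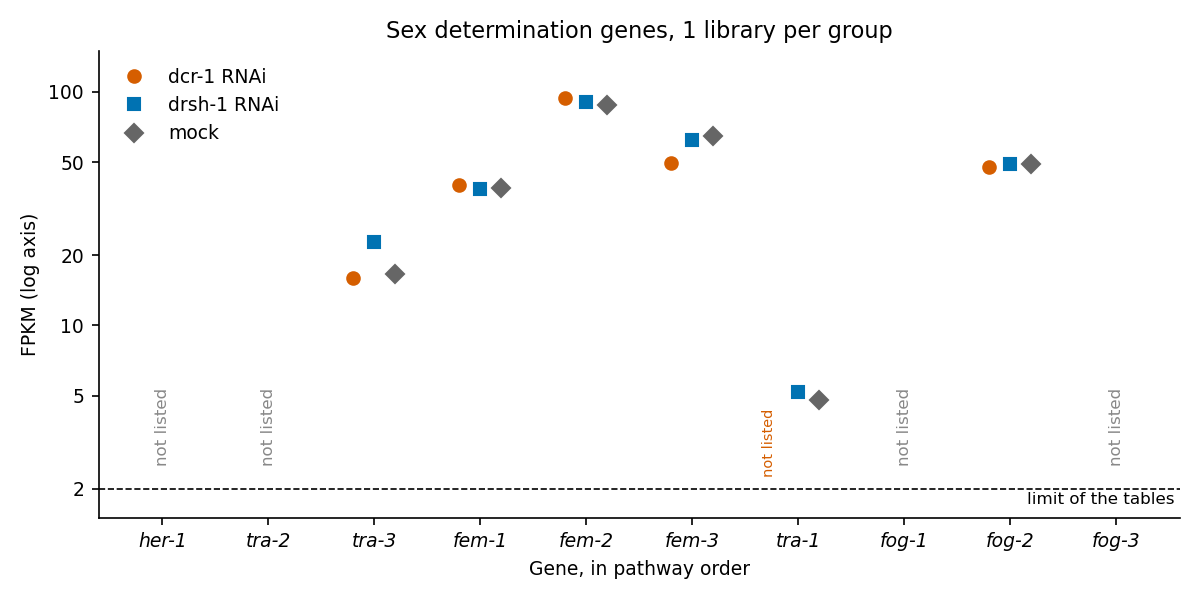
FPKM (log axis) of the 10 sex determination genes in pathway order, with 1 point per library (circles dcr-1 RNAi, squares drsh-1 RNAi, diamonds mock) and the 2 FPKM limit as a dashed line; genes with no value are marked as not listed. The libraries lie close together for fem-1, fem-2 and fog-2, dcr-1 RNAi is the low point for fem-3 (49.5 FPKM) and drsh-1 RNAi the high point for tra-3 (22.7 FPKM).

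The terminal regulator tra-1 was the least abundant listed gene of the pathway. It was at 5.18 FPKM in drsh-1 RNAi against 4.77 FPKM in mock, a log2 ratio of 0.10. It was missing from the dcr-1 table under its symbol and its sequence name (Y47D3A.6), although its mock value in the drsh-1 table was 2.39 times the limit. If the limit alone explains the missing entry, tra-1 was under 2 FPKM in dcr-1 RNAi, which would be a log2 ratio below -0.94. Such gaps were not rare at this level: of 726 genes of the drsh-1 table with a mock value of 4 to 6 FPKM, 103 (14.2%) were missing from the dcr-1 table. The reference annotation (WBcel235) gives tra-1 2 transcripts, and some genes have different mock values in the tables, so a missing entry is not a measured level.

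Of the germ line genes only fog-2 was listed. It was at 47.6 FPKM in dcr-1 RNAi, 49.1 FPKM in drsh-1 RNAi and 49.2 FPKM in mock. All 3 values were within a few percent of each other, the log2 ratio being -0.04 for dcr-1 RNAi and -0.00 for drsh-1 RNAi, where its sign depended on the scaling. fog-2 lies next to its paralog ftr-1 in the annotation, and reads can be shared between the copies, so their single values are uncertain. ftr-1 was at 24.5 FPKM in dcr-1 RNAi, 19.0 FPKM in drsh-1 RNAi and 22.3 FPKM in mock, with log2 ratios of 0.13 and -0.22. The sperm-specifying genes fog-1 and fog-3 were not listed. Of the CPEB family relatives of fog-1 looked up, cpb-1 and cpb-3 were listed and cpb-2 was not. cpb-1, which is needed to make sperm, was at 14.5 FPKM in dcr-1 RNAi, 27.2 FPKM in drsh-1 RNAi and 24.2 FPKM in mock. cpb-3 was at 46.1, 76.5 and 69.1 FPKM in those libraries. Both listed cpb genes were below mock in dcr-1 RNAi (-0.70 and -0.57) and above it in drsh-1 RNAi (0.16 and 0.15).

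The sex determination genes were then set against all genes, and no listed one was as much as 1.5-fold from mock in either knockdown. In dcr-1 RNAi, 0 of 5 were at least 1.5-fold apart from mock, where 29.9% of all 9631 genes were. Their median log2 ratio was -0.04 beside 0.06 for all genes, and their median distance from mock was 0.05 beside 0.34. In drsh-1 RNAi, 0 of 6 were at least 1.5-fold apart, where 10.6% of all 9996 genes were, and the median distance was 0.05 beside 0.16. Only 5 or 6 genes stand behind these counts, too few to be set apart from those shares. Genes below the limit in either library could not enter the counts, and tra-1 had no value in dcr-1 RNAi. In drsh-1 RNAi, 82.9% of all genes lay no farther from mock than tra-3. The order of levels was the same in each library: fem-2, then fem-3, fog-2, fem-1 and tra-3. The neighbours fem-3 and fog-2 were close in dcr-1 RNAi (49.5 and 47.6 FPKM), and without replicates no neighbour in the order can be said to differ. The 5 genes summed to 248 FPKM in dcr-1 RNAi, 263 FPKM in drsh-1 RNAi and 257 FPKM in mock.

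**Figure D3:**
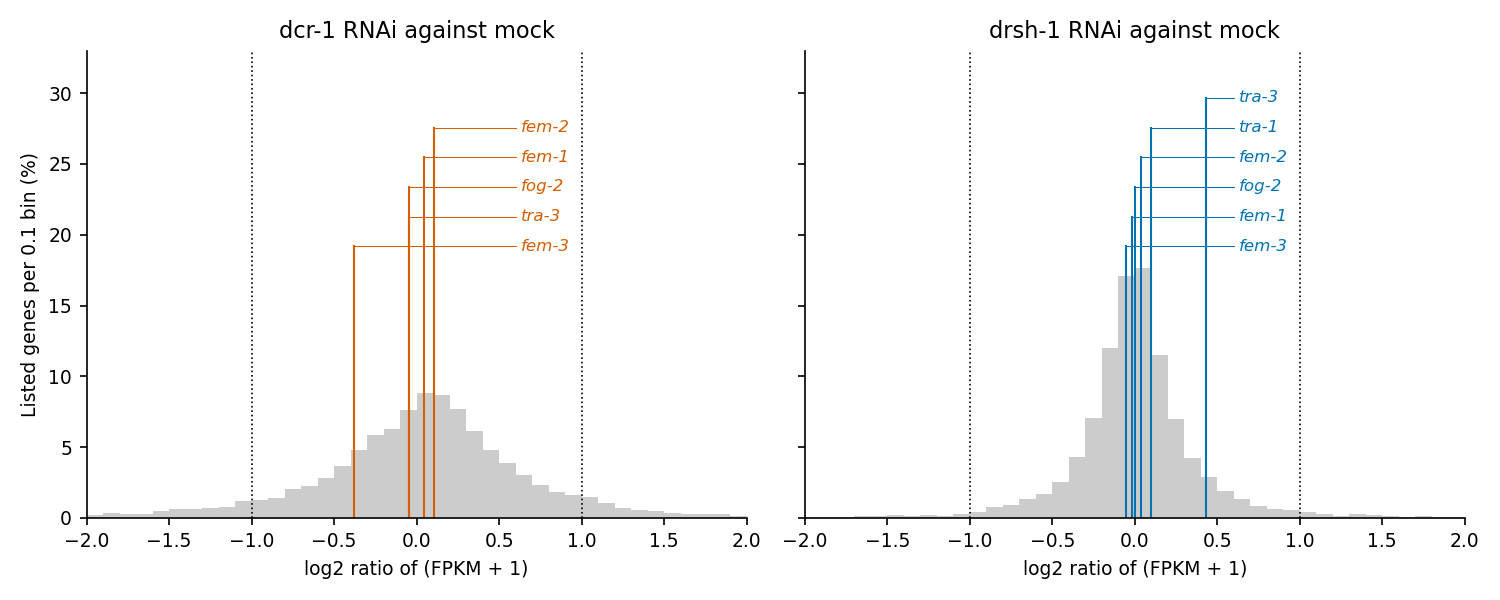
Distribution of the log2 ratio of (FPKM + 1) over all listed genes (grey bars, percent of genes per bin of 0.1, shown from -2 to 2) for dcr-1 RNAi against mock and drsh-1 RNAi against mock, with vertical lines at the sex determination genes and dotted lines at a 2-fold difference. Their heights only separate the names; fem-3 stands at -0.38 in dcr-1 RNAi and tra-3 at 0.43 in drsh-1 RNAi, and the other genes lie close to 0.

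The knockdowns were also compared directly, over genes with equal mock values in both tables. Of the 5 sex determination genes, 0 were at least 1.5-fold apart between dcr-1 RNAi and drsh-1 RNAi, where 26.2% of 9043 genes were. tra-3 had a log2 ratio of -0.48 and fem-3 of -0.33, both lower in dcr-1 RNAi, and fog-2 had -0.04. fem-1 and fem-2 had 0.06 each, values that turned to -0.00 with a common upper quartile.

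The switch from sperm to oocytes in the germ line involves RNA regulators of tra-2 and fem-3, MAP kinase signalling and chromatin factors, and 27 of 28 such genes looked up were listed. In dcr-1 RNAi, 3 of them were at least 2-fold lower than mock and 0 at least 2-fold higher, where 6.53% and 6.71% of all genes were. The 3 were lip-1, laf-1 and mep-1, and the median of the list was -0.10 beside 0.06 for all genes. lip-1, a phosphatase that acts on the MAP kinase MPK-1, was at 15.1 FPKM in dcr-1 RNAi, 65.6 FPKM in drsh-1 RNAi and 63.6 FPKM in mock (log2 ratio -2.004 for dcr-1 RNAi). laf-1, a DEAD-box helicase gene tied to tra-2 translation, was at 15.2 FPKM in dcr-1 RNAi, 47.2 FPKM in drsh-1 RNAi and 51.4 FPKM in mock (-1.70). For both genes the dcr-1 RNAi library alone was low. mep-1, which encodes a zinc finger protein that binds the MOG helicases, was at 43.2 FPKM in dcr-1 RNAi, 89.0 FPKM in drsh-1 RNAi and 92.2 FPKM in mock (-1.07). The kinase gene mpk-1 itself was at 50.5 FPKM in dcr-1 RNAi, 101 FPKM in drsh-1 RNAi and 94.8 FPKM in mock (-0.89).

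In drsh-1 RNAi, 1 of the 27 regulators was at least 2-fold lower and 0 at least 2-fold higher, where 1.59% and 1.91% of all genes were. That gene, cyn-4, encodes the cyclophilin also known as MOG-6, which is needed for the switch to oocytes and acts on fem-3. It was at 83.9 FPKM in dcr-1 RNAi, 2.08 FPKM in drsh-1 RNAi and 53.3 FPKM in mock. The drsh-1 RNAi value stood just above the limit of the table (log2 ratio -4.14), and the dcr-1 RNAi value was above mock (0.65). fem-3 RNA was at 62.4 FPKM in that drsh-1 RNAi library and 64.7 FPKM in mock, and any effect of cyn-4 on fem-3 was not tested. The helicase genes mog-1, mog-4 and mog-5 lay between -0.21 and -0.09 in drsh-1 RNAi. The chromatin remodeller gene let-418, whose protein works with MEP-1, was at 7.24 FPKM in dcr-1 RNAi, 23.7 FPKM in drsh-1 RNAi and 11.8 FPKM in mock, below mock in one knockdown (-0.64) and above it in the other (0.94).

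The direct repressors of tra-2 and fem-3 were listed at very different levels. gld-1 was at 290.0 FPKM in dcr-1 RNAi, 374 FPKM in drsh-1 RNAi and 353 FPKM in mock, with log2 ratios of -0.28 and 0.08. The FBF genes, whose PUF proteins bind fem-3 RNA, were low and near mock: fbf-1 was at 15.3 FPKM in dcr-1 RNAi, 14.2 FPKM in drsh-1 RNAi and 15.4 FPKM in mock, and fbf-2 was at 10.2, 9.19 and 9.97 FPKM. The fbf genes are near-identical, so the split of reads between them is uncertain. nos-3, which encodes a Nanos protein that works with FBF, was at 36.8 FPKM in dcr-1 RNAi, 61.2 FPKM in drsh-1 RNAi and 62.6 FPKM in mock (-0.75 for dcr-1 RNAi and -0.03 for drsh-1 RNAi).

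**Figure D4:**
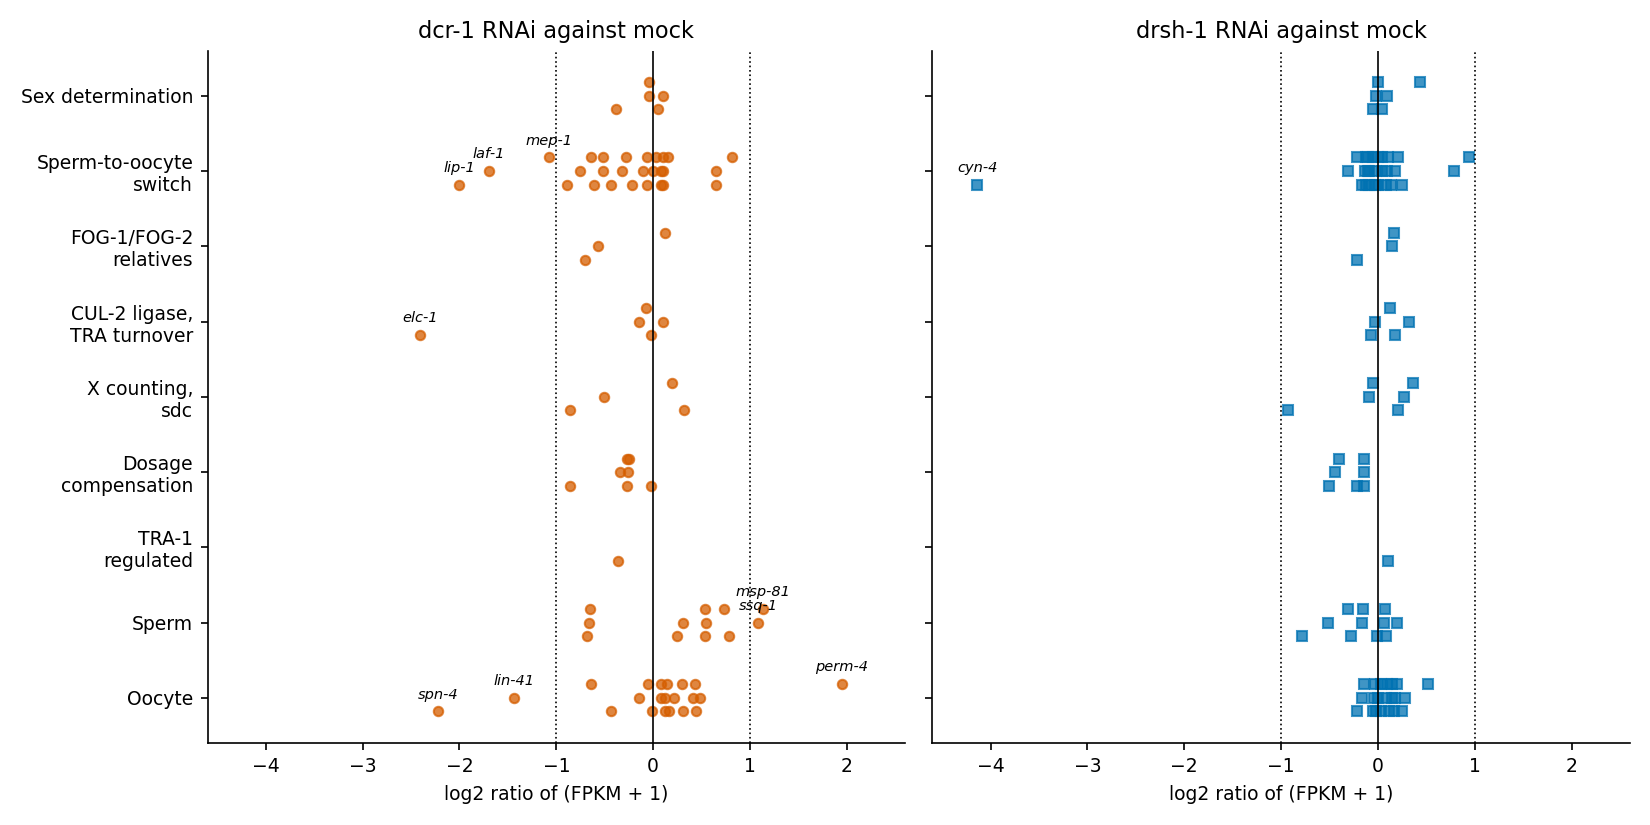
Log2 ratio of (FPKM + 1) of each listed gene, by gene list, for dcr-1 RNAi against mock (left) and drsh-1 RNAi against mock (right); dotted lines mark a 2-fold difference and genes past it are named, and rows are spread vertically only to separate points. The sex determination genes lie inside the dotted lines in both panels, with elc-1 (-2.41), lip-1 (-2.004) and laf-1 (-1.70) past them on the left and cyn-4 (-4.14) on the right.

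The CUL-2 ligase that works with the FEM proteins was covered by 4 genes (cul-2, elb-1, elc-1 and rbx-1) and the turnover of FEM proteins by sel-10, and all 5 were listed. Its cullin gene cul-2 was at 73.7 FPKM in dcr-1 RNAi, 74.0 FPKM in drsh-1 RNAi and 77.7 FPKM in mock. elc-1, encoding the adaptor Elongin C, was at 24.3 FPKM in dcr-1 RNAi, 131 FPKM in drsh-1 RNAi and 134 FPKM in mock, and was the only one of the 5 at least 2-fold apart (-2.41, in dcr-1 RNAi, where 6.53% of all genes were at least 2-fold lower). Its partner elb-1, encoding Elongin B, was at 87.9 FPKM in dcr-1 RNAi, 101 FPKM in drsh-1 RNAi and 89.5 FPKM in mock, near mock in both knockdowns. sel-10, an F-box gene tied to turnover of FEM proteins, was at 58.3 FPKM in dcr-1 RNAi, 81.0 FPKM in drsh-1 RNAi and 64.6 FPKM in mock (-0.15 and 0.32).

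Upstream of her-1, X chromosome dose is read by X signal genes that act on xol-1, a male-determining switch that was not listed. The X signal genes and sdc genes were at 3.21 to 22.2 FPKM, and 0 of the 4 listed in the dcr-1 table and 0 of the 6 in the drsh-1 table were at least 2-fold apart from mock, where 6.71% of all genes were higher and 6.53% lower in dcr-1 RNAi and 1.91% and 1.59% in drsh-1 RNAi. So few genes cannot be set apart from those shares. The nuclear receptor gene sex-1 was at 8.21 FPKM in dcr-1 RNAi, 3.21 FPKM in drsh-1 RNAi and 7.03 FPKM in mock (0.20 and -0.93). With 0.1 FPKM rather than 1 FPKM added, sex-1 was past 2-fold lower in drsh-1 RNAi. sdc-2 and sdc-3, which repress her-1 in XX animals, were listed in the drsh-1 table alone, as tra-1 was. sdc-2 was at 4.04 FPKM in drsh-1 RNAi and 3.35 FPKM in mock, and sdc-3 was at 5.97 FPKM in drsh-1 RNAi and 6.21 FPKM in mock.

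The dosage compensation complex, which lowers X expression in XX animals, was read through 7 genes that do not include the sdc genes above. All 7 genes (dpy-21, dpy-26, dpy-27, dpy-28, dpy-30, mix-1 and capg-1) were below mock in dcr-1 RNAi, where 44.5% of all genes were, and all 7 were below it in drsh-1 RNAi, where 49.6% were. The medians were -0.27 and -0.22, none was 2-fold apart (0 of 7 in each), and both counts rest on 1 shared mock library. Distances from mock were uneven, with log2 ratios from -0.86 (dpy-21) to -0.02 (dpy-26) under dcr-1 knockdown. The sdc genes, left out of these counts, did not all lie below mock. sdc-1 was at 0.32 under dcr-1 knockdown. Under Drosha knockdown, sdc-1 was at -0.09, sdc-2 at 0.21 and sdc-3 at -0.05. dpy-21, a histone demethylase gene of the complex, was at 10.5 FPKM in dcr-1 RNAi, 14.4 FPKM in drsh-1 RNAi and 19.9 FPKM in mock. mix-1, a condensin subunit gene, was at 53.4 FPKM in dcr-1 RNAi, 48.2 FPKM in drsh-1 RNAi and 64.0 FPKM in mock.

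Downstream of TRA-1, the only listed gene of 4 looked up was egl-1, a cell death gene that TRA-1 represses in a pair of egg-laying neurons. It was at 5.34 FPKM in dcr-1 RNAi, 7.80 FPKM in drsh-1 RNAi and 7.19 FPKM in mock. mab-3, dmd-3 and ceh-30, which act in male development, were not listed.

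The germ cell markers are set beside the shares of all genes, more of which were apart from mock in dcr-1 RNAi (6.71% at least 2-fold higher and 6.53% lower) than in drsh-1 RNAi (1.91% and 1.59%). Of 12 listed sperm genes, 9 were above mock in dcr-1 RNAi, where 55.5% of all genes were, and 2 were at least 2-fold higher. In drsh-1 RNAi 4 of 11 sperm genes were above mock, where 50.4% of all genes were, and 0 were at least 2-fold higher. msp-81, a major sperm protein gene, was at 8.03 FPKM in dcr-1 RNAi, 3.29 FPKM in drsh-1 RNAi and 3.11 FPKM in mock, and ssq-1 was at 8.53, 4.16 and 3.50 FPKM. These levels stay close to the limit, and major sperm protein genes can share reads. The 9 family genes were looked up only among listed genes, which have at least 2 FPKM in both libraries of a table. Those with mock values near the limit, such as msp-45 (2.17 FPKM) and msp-19 (2.21 FPKM), could hardly be counted as lower. Genes under the limit in mock, in turn, could not be counted as higher. The counts above mock can therefore be biased in either direction, and the shares of all genes do not allow for this. Of 21 oocyte genes, 1 was at least 2-fold higher in dcr-1 RNAi, the eggshell gene perm-4 at 33.3 FPKM against 7.88 FPKM in mock, and 2 were lower. Those 2 were the maternal RNA-binding protein gene spn-4, at 83.4 FPKM in dcr-1 RNAi against 393 FPKM in mock, and lin-41, a TRIM protein gene, at 12.7 FPKM in dcr-1 RNAi against 36.0 FPKM in mock, the mock value of lin-41 being different in the other table. In drsh-1 RNAi 0 of 21 were 2-fold apart. Yolk genes, which the intestine of XX adults expresses and MAB-3 represses in males, were listed in 5 of 6 cases. vit-5 was not listed, although the 5 listed yolk genes were at 44.6 to 1165 FPKM in mock. The listed yolk genes lay on both sides of mock in dcr-1 RNAi, from -4.26 for vit-6 and -2.98 for vit-2 to 3.74 for vit-4 and 3.75 for vit-1. vit-6 was at 2.29 FPKM in dcr-1 RNAi, just above the limit, against 62.2 FPKM in mock. vit-2 was at 147 FPKM in dcr-1 RNAi against 1165 FPKM in mock, and vit-1 at 612 FPKM against 44.6 FPKM. The vit genes are paralogs that can share reads, so their single values are uncertain. In drsh-1 RNAi the 3 genes at least 2-fold higher were vit-4 (2.08), vit-1 (1.68) and vit-3 (1.51).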

How the data were processed

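PolyA RNA of young adult worms was sequenced with the TruSeq kit on the HiSeq2000 after TRIzol extraction, per the labels' protocols. Cuffdiff 2.1.1, TopHat2 2.06, SAMtools, Cufflinks and CASAVA 1.8.2 were used in unstated roles, per the submitters' processing notes. Coordinates and sequences are left out, the genome build and annotation being not given in the sources used here. The authors deposited FPKM values for mock and for 1 RNAi library in each of 2 tables without headers, and a log2 ratio, which matches a recalculation from the FPKM values with 1 added to each to within 5.0e-12. The RNAi library was read from each table's name, and mock was the column both tables share. Of 9459 shared genes, 9043 had the same mock value in each table (within 1e-09 FPKM), which include the 5 sex determination genes in both.

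Ratios used a pseudocount of 1 FPKM and no further filter. Genes were counted at 1.5-fold and 2-fold as a description of size. Genes were matched by symbol, and 6 list genes by the sequence name that RefSeq (WBcel235) gives. Transcript numbers come from the Ensembl annotation of WBcel235. The members and lists were chosen with earlier results of these data known. The text names all 10 sex determination genes, up to 4 genes per list and comparison at least 2-fold from mock, and a fixed set of regulators. cpb-1, cpb-3, mpk-1, let-418, mog-1, mog-4, mog-5, elb-1, sex-1, sdc-2, sdc-3, dpy-21, mix-1, egl-1, rbx-1, spe-6, spe-15, spe-39 and nspd-7 were added after their values were seen. Alternatives were other pseudocounts (0.1 and 5 FPKM), centring on the median gene, a common upper quartile, a mean of at least 5 FPKM, and genes with equal mock values only. Python 3.11.15, pandas 2.3.3 and matplotlib 3.10.9 were used. The ratio formula was run on values set to known ratios without noise, which checks the arithmetic and not the findings.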

Additional observations from a re-analysis of the deposited data

How the results depend on the processing

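No listed sex determination gene reached 1.5-fold in any comparison under any alternative run (0 in each). tra-1 had no value in dcr-1 RNAi, where a level under 2 FPKM would be a log2 ratio below -0.94. Across the alternatives the log2 ratios were -0.45 to -0.36 for fem-3 in dcr-1 RNAi and 0.36 to 0.45 for tra-3 in drsh-1 RNAi. The settings of equal mock values only and of a mean of at least 5 FPKM could not move these ratios, so the ranges reflect the pseudocount and the scaling alone. Counts over all genes were smaller with a pseudocount of 5 FPKM, by its construction: 409 genes were at least 2-fold higher and 407 lower in dcr-1 RNAi (646 and 629 with 1 FPKM), 99 higher and 89 lower in drsh-1 RNAi (191 and 159), and 602 at least 1.5-fold apart in drsh-1 RNAi (1064). With 0.1 FPKM, 3 list genes rather than 1 were at least 2-fold lower in drsh-1 RNAi, the added ones being sex-1 and 1 sperm gene. The 2 sperm genes past 2-fold in dcr-1 RNAi became 0 with 5 FPKM, cyn-4 was at -3.04 in drsh-1 RNAi and vit-6 at -3.20 in dcr-1 RNAi with that setting. Of the oocyte genes lower in dcr-1 RNAi 1 was left among genes with equal mock values, and 0 were higher when genes were matched by symbol only, a setting chosen after seeing the data. The median of all genes lay 0.06 above mock in dcr-1 RNAi and 0.00 above it in drsh-1 RNAi. No paired analysis was possible because each group has 1 library.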
